A study of Mus musculus with 5 samples.

Results

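Aminoacyl-tRNA synthetases, the enzymes that join each amino acid to its tRNA, were followed gene by gene in the brown adipose tissue (BAT) of cold-exposed mice. The members are 36 nuclear genes taken by name: 20 that code for the enzymes of the cytosol and 16, with symbols ending in 2, that code for those of mitochondria. All 36 passed the filter of at least 10 counts in at least 2 mice, among 16450 genes tested. BAT RNA came from 3 ATF4 BKO mice and 2 WT mice, 1 library per mouse, after 3 days at 4 °C with free access to food, following acclimation at thermoneutrality. The ATF4 BKO mice carried floxed Atf4 alleles (ATF4 fl/fl) and a Cre transgene driven by the Ucp1 promoter, and the WT mice carried the floxed alleles without Cre. Both groups are described as male C57Bl/6J mice aged 10 to 12 weeks. Cre driven by Ucp1 acts in thermogenic adipocytes, so the other cells of this bulk tissue were not targeted.

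Synthetases fall into a pair of structural classes, I and II, that build the same bond on different protein folds. Mammalian cells make proteins in the cytosol and inside mitochondria, and for most amino acids a separate gene supplies the enzyme of each compartment. Several cytosolic synthetases sit together in a multi-synthetase complex held by the scaffold proteins AIMP1, AIMP2 and AIMP3. Gars and Kars supply both compartments from 1 gene each, and glutamine tRNA of mitochondria is charged by another route that ends in an amidotransferase. ATF4, a basic leucine zipper transcription factor made when eIF2alpha is phosphorylated, is known for driving genes of amino acid uptake, synthesis and tRNA charging, and pairs with C/EBP factors on a composite DNA element.

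Total estimated counts ranged from 24698337 to 32452751 per library. Atf4, the targeted gene, was 32.6, 52.6 and 23.5 CPM (counts scaled to library size, with sizes adjusted by TMM) in ATF4 BKO replicates 1, 2 and 3, and 286 and 226 CPM in WT replicates 1 and 2, so its groups did not overlap. Its log2 fold change of ATF4 BKO over WT was -2.82 (SE 0.34), with an adjusted p of 0.671 by edgeR's quasi-likelihood test and of 9.72e-12 by DESeq2. With 2 WT mice, the spread of that group rests on 1 pair, and the edgeR test had 3 residual degrees of freedom. Of 10 brown adipocyte markers, 10 passed the filter. They summed to 23870, 20230 and 25500 CPM in ATF4 BKO mice against 19140 and 21390 CPM in WT mice, with overlap. Fabp4 (6977, 6961 and 8745 against 6186 and 6446 CPM) and Adipoq were higher in every ATF4 BKO library than in both WT libraries. That held for 8.95% of all genes, and the other brown adipocyte markers overlapped. ATF4 BKO replicate 1 is labelled male but held 4598 Xist counts, where the other 4 libraries had 7 or fewer, so the main results are also given without it. Skeletal muscle markers were lower in every ATF4 BKO library than in both WT libraries for 21 of 22 genes. Summed without Mb, which brown fat also makes, they ranged from 68.5 to 114 CPM in ATF4 BKO mice, with 239 CPM in WT replicate 1 and 2642 CPM in WT replicate 2, and Myh7, Tnnt3, Pvalb and Myoz1 were at 0 in some library. Summed macrophage markers were lowest in WT replicate 1 at 190 CPM, against 482 to 1323 CPM in the other 4. White adipocyte markers (4 of 5 tested, Hoxc9 at 0 in some library) summed to 25.8, 38.5 and 19.5 CPM in the 3 ATF4 BKO libraries against 40.5 and 43.04 CPM in the 2 WT libraries, and endothelial markers (6 of 6 tested) to 942, 924 and 1200 CPM against 729 and 848 CPM. Neither sum overlapped between the groups, with the white adipocyte sum lower and the endothelial sum higher in ATF4 BKO mice. Of single markers, 2 white adipocyte (Lep and Nnat) and 0 endothelial markers were lower in every ATF4 BKO library than in both WT libraries. The white adipocyte Retn and Hoxc8 overlapped, and Retn was highest in ATF4 BKO replicate 2, at 28.7 CPM against 16.6 and 22.6 CPM in WT mice. Hoxc9, at 0.236 CPM or less, was higher in every ATF4 BKO library. The endothelial Pecam1 (202.5, 237.4 and 249.5 CPM against 156.5 and 191.3 CPM) and Tek were higher in every ATF4 BKO library, and Cdh5, Kdr, Vwf and Cldn5 overlapped. The part of these markers in the synthetase differences was not tested.

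Cytosolic synthetases were lower in ATF4 BKO mice in 19 of 20 genes, where 8025 of all 16450 genes were lower. Their median log2 fold change was -0.71, a fold of 0.613, beside 0.01 over all genes tested. In 15 of the 20, every ATF4 BKO library lay below both WT libraries, which held for 10.6% of all genes, and in 0 of the 20 did every ATF4 BKO library lie above both, which held for 8.95%. The edgeR test called 0 of the 20 at an adjusted p under 0.05, where it called 0.00608% of all genes (1 gene). At an unadjusted p under 0.05 it put 14 of the 20 lower and 0 higher, where 3.42% of all genes were lower. DESeq2, the tool named in the study's methods, called 6 of the 20, each lower (Cars, Yars, Nars, Aars, Eprs and Wars), where it called 0.608% of all genes lower. Mitochondrial synthetases had a median of -0.05 on that scale, with 9 lower and 7 higher, and 0 of the 16 were called by either tool or reached an unadjusted p under 0.05 in edgeR. Fewer cells of a type and less RNA per cell cannot be told apart in bulk tissue.

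**Figure D1:**
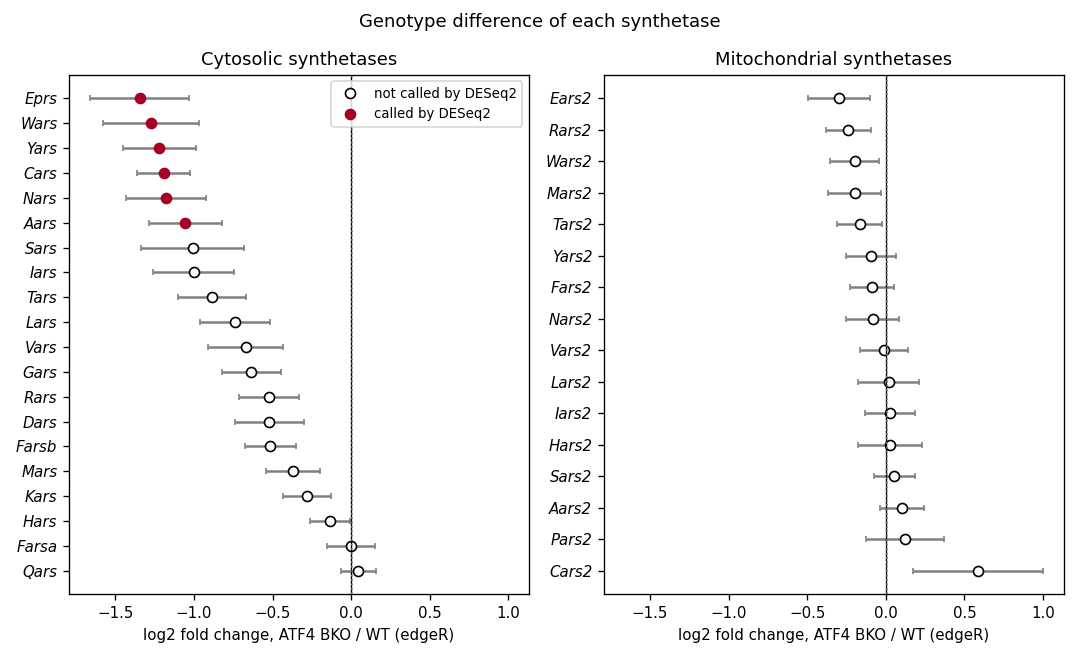
Log2 fold change of ATF4 BKO over WT from edgeR for each of the 20 cytosolic (left) and 16 mitochondrial (right) synthetases, with bars of 1 standard error and a dotted line at the median of all genes tested. Filled points mark the 6 genes called by DESeq2, and the cytosolic genes run from -1.34 (Eprs) to 0.05 (Qars), while 15 of the 16 mitochondrial genes lie between -0.30 and 0.12.

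Cars (ENSMUSG00000010755.17, chr7:143557230-143600090 in GRCm38), which charges cysteine tRNA, had the smallest p of the 36. It was 12.7, 16.1 and 14.3 CPM in ATF4 BKO replicates 1, 2 and 3 and 36.2 and 29.5 CPM in WT replicates 1 and 2. The groups did not overlap, and both WT values were well above the highest ATF4 BKO value. The log2 fold change was -1.19 (SE 0.17), with an adjusted p of 0.671 by edgeR and of 1.42e-05 by DESeq2. Leaving out any 1 mouse kept it between -1.35 and -1.03, the narrowest range among the genes that DESeq2 called.

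Yars (ENSMUSG00000028811.11, chr4:129189760-129219607), the tyrosine enzyme, was 35.7, 40.9 and 38.1 CPM in ATF4 BKO mice against 113 and 65.4 CPM in WT mice. The groups did not overlap, and WT replicate 1 stood above WT replicate 2 by more than the whole spread of the ATF4 BKO mice. Its log2 fold change was -1.22 (SE 0.23), with an adjusted p of 0.701 by edgeR and of 0.00463 by DESeq2. Nars (ENSMUSG00000024587.10, chr18:64499647-64516652), the asparagine enzyme, was 64.1, 77.4 and 69.7 CPM against 205 and 114 CPM, with no overlap. Its log2 fold change of -1.18 (SE 0.25) had an adjusted p of 0.704 by edgeR and of 0.0133 by DESeq2. Aars (ENSMUSG00000031960.14, chr8:111033144-111057664), the alanine enzyme, was 71.0, 95.0 and 73.4 CPM in ATF4 BKO mice against 201 and 129.9 CPM in WT mice. ATF4 BKO replicate 2 was the highest of its group and still lay below both WT mice. The log2 fold change of Aars was -1.05 (SE 0.23), with an adjusted p of 0.704 by edgeR and of 0.0139 by DESeq2. Aars shares 14.4% of the 31-base words of its transcripts with other genes, Exosc6 above all, so part of the Aars count is uncertain.

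Eprs (ENSMUSG00000026615.14, chr1:185363044-185428360) codes for a single fused protein that charges both glutamate and proline tRNAs, and had the most negative fold change of the 36. It was 82.7, 126 and 93.1 CPM in ATF4 BKO mice against 337 and 173 CPM in WT mice. Here too the groups did not overlap, with ATF4 BKO replicate 2 and WT replicate 2 the nearest to each other. The log2 fold change was -1.34 (SE 0.32), with an adjusted p of 0.744 by edgeR and of 0.0158 by DESeq2. Wars (ENSMUSG00000021266.16, chr12:108860030-108894174), the tryptophan enzyme, was 67.0, 71.4 and 62.1 CPM against 219.7 and 104 CPM, without overlap, and WT replicate 1 was far above the other 4 libraries. Its log2 fold change of -1.27 (SE 0.30) had an adjusted p of 0.744 by edgeR and of 0.0274 by DESeq2.

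A further 4 named cytosolic genes were lower at an unadjusted p under 0.05 in edgeR but were called by neither tool. Iars, the isoleucine enzyme, was 38.2, 46.3 and 44.1 CPM in ATF4 BKO mice against 111 and 60.7 CPM in WT mice, with a log2 fold change of -1.0 (SE 0.26). Tars, the threonine enzyme, was 35.2, 40.5 and 34.3 CPM against 83.3 and 52.0 CPM, and the log2 fold change was -0.88 (SE 0.22). In both genes the 3 ATF4 BKO values were close together and WT replicate 1 was the highest library. Lars, the leucine enzyme, was 31.1, 31.2 and 27.1 CPM against 61.8 and 37.8 CPM, and the log2 fold change was -0.74 (SE 0.22). Gars, the glycine enzyme, was 183, 191 and 184 CPM against 344 and 234 CPM, and the log2 fold change was -0.63 (SE 0.19). Neither gene overlapped between the groups. The edgeR adjusted p of these 4 genes was between 0.769 and 0.869, and the DESeq2 adjusted p was between 0.0802 and 0.331. Iars shares 14.7% of its 31-base words with other genes, Gm4849 above all, so part of its count is uncertain, by an amount that was not measured.

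The other 10 cytosolic genes graded from Sars to Qars. Sars, the serine enzyme, was 70.6, 109.6 and 73.5 CPM against 225 and 115 CPM, with a log2 fold change of -1.01 (SE 0.33) and an unadjusted p of 0.0217. Its ATF4 BKO replicate 2 came within 6 CPM of WT replicate 2. Vars (valine), Rars (arginine) and Farsb, the beta subunit of the phenylalanine enzyme, had log2 fold changes of -0.67, -0.52 and -0.52, each below both WT mice in every ATF4 BKO mouse and each with an unadjusted p under 0.05. Dars (aspartate), Mars (methionine), Kars (lysine) and Hars (histidine) had log2 fold changes of -0.52, -0.37, -0.28 and -0.13, with unadjusted p from 0.0544 to 0.329, and of these Mars alone did not overlap between groups. Farsa, the alpha subunit of the phenylalanine enzyme, was 23.2, 27.8 and 26.1 CPM in ATF4 BKO mice against 28.0 and 23.5 CPM in WT mice, and the groups overlapped fully. Its log2 fold change was -0.003 (SE 0.15), while that of its partner subunit Farsb was -0.52 (SE 0.16), and the difference between the subunits was not tested. Qars, the glutamine enzyme, was 61.1, 63.2 and 59.6 CPM against 60.1 and 58.6 CPM, so that all 5 libraries lay within 5 CPM, with a log2 fold change of 0.05 (SE 0.11). Hars shares 7.86% of its 31-base words with other genes, mainly with Hars2, whose gene overlaps it by 198 bases on the opposite strand.

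**Figure D2:**
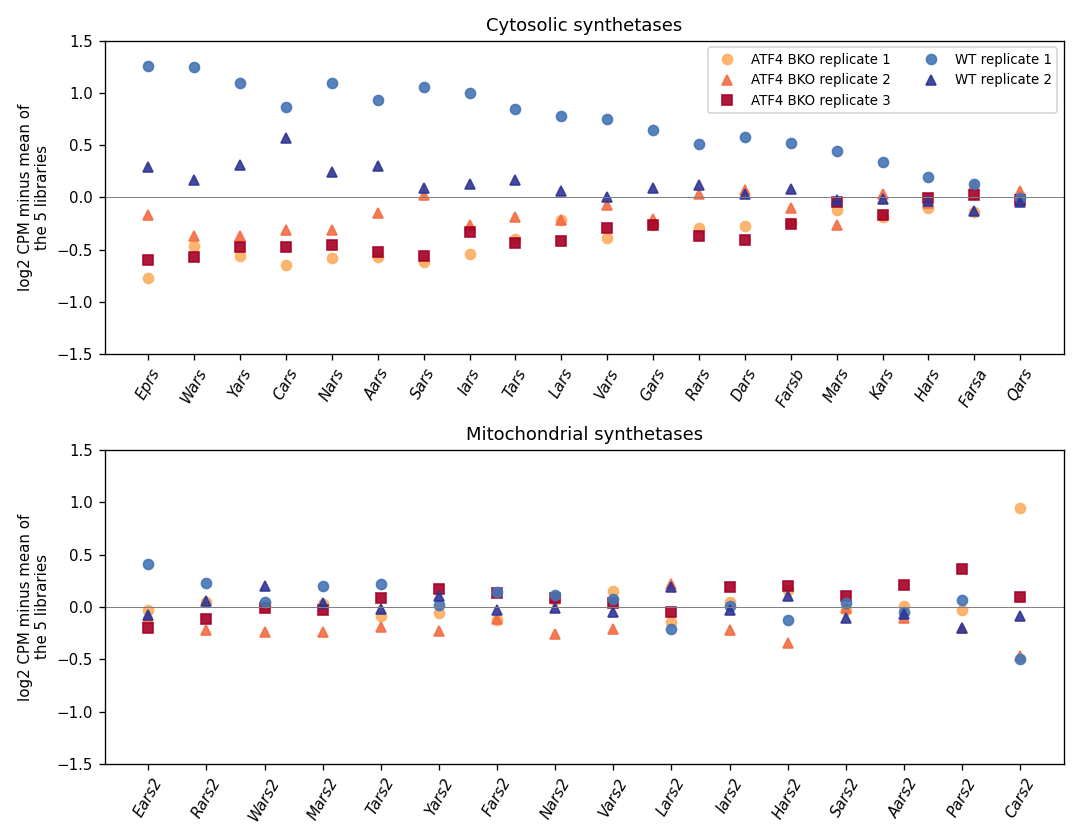
Log2 CPM of each synthetase minus its mean over the 5 libraries, 1 point per library, with cytosolic genes above and mitochondrial genes below, ordered by fold change. WT replicate 1 is above WT replicate 2 for 20 of 20 cytosolic genes and 11 of 16 mitochondrial genes, and Cars2 in ATF4 BKO replicate 1 stands apart at the right of the lower panel.

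The WT mice themselves differed. WT replicate 1 was above WT replicate 2 in 20 of 20 cytosolic genes, by a median of 0.59 and a range of 0.04 to 1.09 on the log2 scale, while over all genes it was above in 49.6%. Among the ATF4 BKO mice, replicate 2 was the highest in 18 of 20 cytosolic genes (90%), where it was the highest in 43.5% of all genes. Taken per library, the median deviation of the cytosolic genes from their 5-library means was -0.34, -0.16 and -0.39 (log2) in ATF4 BKO replicates 1, 2 and 3, and 0.76 and 0.09 in WT replicates 1 and 2. WT replicate 1 was also the library with the lowest macrophage markers and WT replicate 2 the one with the highest muscle markers, and their part in this was not tested. On the cytosolic medians, WT replicate 2 lay nearer to ATF4 BKO replicate 2 than to WT replicate 1. The mitochondrial medians were 0.01, -0.21 and 0.09 in ATF4 BKO mice against 0.06 and -0.02 in WT mice, with ATF4 BKO replicate 2 the lowest of its group in 12 of 16 genes (75%), against 32.3% of all genes.

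The size of the cytosolic difference moved with the WT mouse used. Without WT replicate 1 the cytosolic median was -0.33, and without WT replicate 2 it was -1.04. Each of these fits rests on a single WT mouse, so no count of calls is read from them. Over all genes and in either direction, DESeq2 called 121 with all 5 libraries. With either WT mouse left out, the ATF4 BKO libraries stayed below the remaining WT library in most genes. The counts were 15 of 20 without WT replicate 1 (20.2% of all genes) and 19 of 20 without WT replicate 2 (29.4%). The first count equals that with all 5 libraries by construction, since WT replicate 1 was above WT replicate 2 in 20 of 20 genes. Without ATF4 BKO replicate 1, the library that went against its sex label, the median was -0.70. DESeq2 then called 2 members, Cars and Yars, against 6 with all 5 libraries, while over all genes it called 120 against 121. The genes below both WT mice were 15 of 20 (16.4% of all genes). In each cytosolic gene the highest ATF4 BKO value was that of replicate 2 or 3, so leaving out ATF4 BKO replicate 1 could not change that count. The mitochondrial median without this library was -0.06, with 4 of 16 genes below both WT mice. Without ATF4 BKO replicate 3 DESeq2 called Cars alone (56 over all genes), and without ATF4 BKO replicate 2 it called 7, with Sars as the addition (205 over all genes). With the mean log2 level of the muscle markers, Mb included, as a covariate the cytosolic median was -1.203. That covariate was -0.78, 0.79 and -1.16 in ATF4 BKO replicates 1, 2 and 3, and 2.14 and 6.26 in WT replicates 1 and 2. Its groups did not overlap, so muscle content and genotype are confounded in this fit. Names of the deposited tables begin with S1 (ATF4 BKO replicates 1 and 2, WT replicate 1) or S2 (ATF4 BKO replicate 3, WT replicate 2), and what the prefix means is not given in the sources used here. The cytosolic median was -0.98 within S1 and -0.47 within S2, each resting on a single WT mouse.

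**Figure D3:**
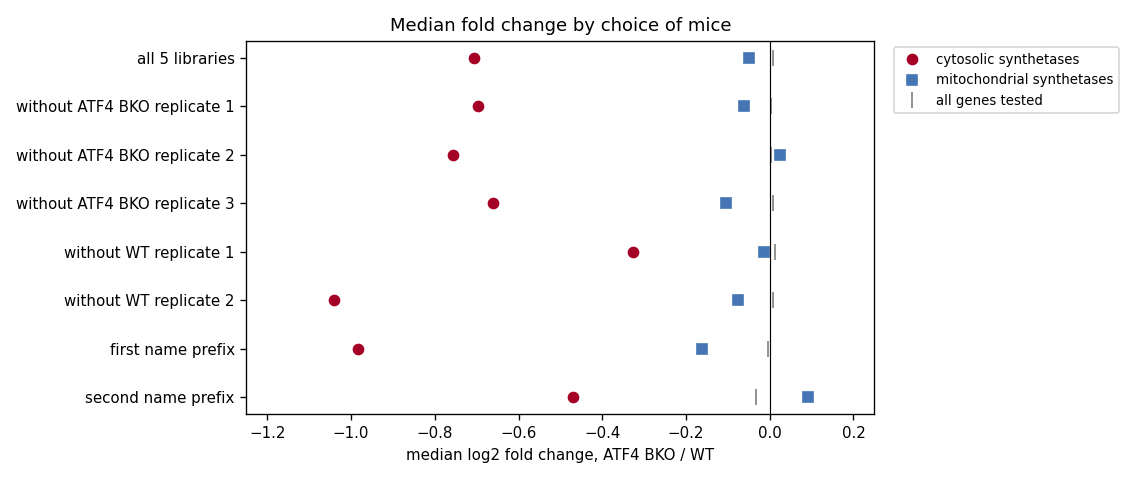
Median log2 fold change of ATF4 BKO over WT over the 20 cytosolic genes (circles), the 16 mitochondrial genes (squares) and all genes tested (ticks), with all 5 libraries, with each library left out, and within each table-name prefix (S1, then S2). The cytosolic median ranges from -1.04 to -0.33 over these choices and lies below the mitochondrial median in each.

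Within the cytosolic group, the log2 fold change had a median of -0.87 in the 10 class I genes and of -0.58 in the 10 class II genes, with 4 and 2 genes called by DESeq2, where 0.608% of all genes were called lower. Eprs, which holds a class I and a class II enzyme, was counted in class I and is among its called genes. The 8 members of the multi-synthetase complex (Dars, Eprs, Iars, Kars, Lars, Mars, Qars and Rars) had a median of -0.52, and 5 of them were below both WT mice in every ATF4 BKO mouse. The 12 genes outside the complex had a median of -0.95, and 10 of them were below both WT mice, where 10.6% of all genes were. DESeq2 called 1 gene of the complex, Eprs, and 5 outside it. The differences between these subgroups were not tested.

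The promoter windows of the members were scanned for the letters TGATGNAA, the core of the C/EBP-ATF composite element that ATF4 is known to bind, and for the cAMP response element TGACGTCA, on both strands. RefSeq windows (GRCm38.p6), each from 250 bases before to 50 after a start site, were matched for 13 of the 20 cytosolic and 14 of the 16 mitochondrial genes. TGATGNAA was found in 5 of the 13 cytosolic genes (Aars, Gars, Iars, Tars and Yars) and in 0 of the 14 mitochondrial genes. It was found in 4.51% of all 27025 genes with a window, and in 3.97% of all 32851 windows. TGACGTCA was found in 0 of either group, in 2.03% of all genes with a window and in 1.79% of all windows. The letters of one motif cannot match the other at the same place. A stretch of each of the 5 cytosolic windows is printed, since these are the members with a match, from 150 bases before to 20 after the start, with the match in capitals:
Aars promoter, chr8:111033692-111033861, plus strand: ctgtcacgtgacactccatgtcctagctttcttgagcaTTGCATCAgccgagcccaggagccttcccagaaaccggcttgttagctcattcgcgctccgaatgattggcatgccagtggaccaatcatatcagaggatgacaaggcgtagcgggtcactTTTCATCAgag
Gars promoter, chr6:55037851-55038020, plus strand: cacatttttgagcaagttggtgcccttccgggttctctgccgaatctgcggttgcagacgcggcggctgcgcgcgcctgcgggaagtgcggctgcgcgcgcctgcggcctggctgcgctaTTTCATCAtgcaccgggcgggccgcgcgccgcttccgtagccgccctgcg
Iars promoter, chr13:49681980-49682149, plus strand: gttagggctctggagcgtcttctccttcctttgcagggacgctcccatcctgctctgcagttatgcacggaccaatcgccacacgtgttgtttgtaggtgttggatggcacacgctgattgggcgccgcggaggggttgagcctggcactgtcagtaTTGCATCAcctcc
Tars promoter, chr15:11399639-11399808, minus strand: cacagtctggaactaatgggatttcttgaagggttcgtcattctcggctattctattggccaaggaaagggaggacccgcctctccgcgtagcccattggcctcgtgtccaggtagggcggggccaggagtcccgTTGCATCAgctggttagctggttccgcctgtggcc
Yars promoter, chr4:129189753-129189922, plus strand: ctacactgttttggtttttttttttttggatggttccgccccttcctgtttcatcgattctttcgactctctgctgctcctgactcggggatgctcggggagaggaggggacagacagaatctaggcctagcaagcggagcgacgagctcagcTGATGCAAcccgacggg
Yars carries the letters in the direction of the gene, and the others carry them on the opposite strand, where they read as TTGCATCA or TTTCATCA. Aars has matches at -112 to -105 and at 10 to 17, and the single matches lie at -30 to -23 in Gars, 8 to 15 in Iars, -15 to -8 in Tars and 4 to 11 in Yars, counted from the start site as 1. The log2 fold changes of these 5 genes ran from -1.22 (Yars) to -0.63 (Gars). The RefSeq starts of Aars, Iars, Tars and Yars lie inside the GENCODE spans of these genes, and that of Gars lies just before its span. The positions are counted from the RefSeq starts. The letters are a description of these windows and were not tested against the fold changes. Cars, Nars and Wars, which DESeq2 also called, are among the 7 cytosolic genes without a matched window, and Eprs has a window without either motif.

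Among the mitochondrial synthetases, the largest difference from 0 was that of Cars2 (ENSMUSG00000056228.10, chr8:11513977-11550783), the mitochondrial cysteine enzyme. Cars2 was 237, 89.1 and 131 CPM in ATF4 BKO mice against 87.2 and 115.8 CPM in WT mice. ATF4 BKO replicate 1 was far above the other 4 libraries, and ATF4 BKO replicate 2 lay at the level of WT replicate 1, so the groups overlapped. Its log2 fold change was 0.59 (SE 0.41), with an adjusted p of 0.920 by edgeR, and 0.12 without ATF4 BKO replicate 1. Cars2 overlaps Naxd by 984 bases on the opposite strand and shares 8.53% of its 31-base words with other genes. Only 17.6% to 36% of its counts went to protein-coding transcripts, and Cars2-205, annotated for nonsense-mediated decay, held 68.6% in ATF4 BKO replicate 1 and 44.3% to 56.9% in the other libraries.

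Lars2 (ENSMUSG00000035202.8, chr9:123366927-123462666), which charges leucine tRNA in mitochondria, was 396, 509 and 424 CPM in ATF4 BKO mice against 377 and 498 CPM in WT mice. The groups overlapped, and the log2 fold change was 0.02 (SE 0.19), a sign that turned under several scalings and left-out mice. Vars2, the valine enzyme of mitochondria, was 44.8, 34.8 and 41.5 CPM against 42.5 and 38.9 CPM, with a log2 fold change of -0.01 (SE 0.15). In Lars2 and Vars2 each WT value fell inside or beside the ATF4 BKO range.

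Apart from Cars2, the 5 mitochondrial members with the smallest p had fold changes a little below 0. Rars2 (arginine) was 28.8, 24.0 and 25.7 CPM against 32.7 and 29.1 CPM, and the log2 fold change was -0.24 (SE 0.14) with an unadjusted p of 0.145. Ears2 (glutamate) was 11.9, 11.4 and 10.6 CPM against 16.2 and 11.6 CPM, and the log2 fold change was -0.30 (SE 0.20). Wars2 (tryptophan) was 18.2, 15.2 and 17.8 CPM against 18.5 and 20.6 CPM, and the log2 fold change was -0.20 (SE 0.15). Rars2 and Wars2 did not overlap between the groups, and Ears2 did. Mars2 (methionine) was 12.9, 10.7 and 12.4 CPM against 14.5 and 13.0 CPM, and the log2 fold change was -0.20 (SE 0.17), with the groups just apart. Tars2 (threonine) was 54.0, 50.2 and 60.9 CPM against 66.7 and 56.7 CPM, and the log2 fold change was -0.16 (SE 0.14), with overlap. In all, 3 of the 16 mitochondrial genes (Mars2, Rars2 and Wars2) were below both WT mice in every ATF4 BKO mouse, beside 10.6% of all genes, and 0 were above both, beside 8.95%. The edgeR adjusted p of the 6 mitochondrial genes with the smallest p, Cars2 included, was between 0.920 and 0.936, and the DESeq2 adjusted p was 0.9999 for each. Fars2, Nars2 and Yars2 had log2 fold changes from -0.09 to -0.08.

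Besides Cars2 and Lars2, 5 mitochondrial genes had a fold change above 0, against the sign of their group's median. Aars2 (alanine) was 49.1, 45.5 and 56.6 CPM against 47.1 and 46.6 CPM, and the log2 fold change was 0.10 (SE 0.14). Pars2 (proline) was 6.98, 6.19 and 9.19 CPM against 7.50 and 6.22 CPM, and the log2 fold change was 0.12 (SE 0.25). In both, ATF4 BKO replicate 3 was the highest library and ATF4 BKO replicate 2 the lowest. Sars2 (serine) was 29.0, 29.4 and 31.8 CPM against 30.4 and 27.5 CPM, at a log2 fold change of 0.06 (SE 0.13). Hars2 (histidine) was 38.1, 26.9 and 39.2 CPM against 31.3 and 36.7 CPM, at a log2 fold change of 0.03 (SE 0.20). Iars2 (isoleucine) was 204, 169 and 225 CPM against 198 and 193 CPM, at a log2 fold change of 0.03 (SE 0.16). All 5 overlapped between the groups, with an edgeR adjusted p of 0.948 to 0.989. Iars2 shares 23.6% of its 31-base words with other genes, mainly Rab3gap2, and Fars2 shares 9.83%.

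Set side by side for each amino acid, 17 pairs of a cytosolic and a mitochondrial gene could be formed, with Eprs paired to Ears2 and to Pars2, and Fars2 to both phenylalanine subunits. The cytosolic gene had the more negative log2 fold change in 16 of the 17, and the exception was Farsa with Fars2, at 0.08. The median of the cytosolic value minus the mitochondrial value was -1.03, with the most negative at -1.78 for Cars and Cars2. TPM, which scales counts for transcript length and library size, allows the level of one enzyme to be set against that of the other within a library. The TPM ratio of Aars to Aars2 was 0.812, 1.11 and 0.813 in ATF4 BKO mice against 2.39 and 1.72 in WT mice. The ratio of Wars to Wars2 was 5.23, 6.46 and 5.201 against 16.7 and 7.56, and that of Eprs to Pars2 was 3.99, 8.85 and 4.31 against 18.1 and 11.1. In each of these 3 pairs every ATF4 BKO mouse was below both WT mice. The same held for 10 of the 17 pairs, and Farsa over Fars2, Hars over Hars2, Lars over Lars2, Mars over Mars2, Nars over Nars2, Rars over Rars2 and Vars over Vars2 overlapped between the groups. The share of such separation over other pairs of genes was not computed. The pairs are not independent, with 16 different cytosolic and 16 different mitochondrial genes. In Nars over Nars2 and in Rars over Rars2 it was ATF4 BKO replicate 2 that lay above WT replicate 2, at 5.80 against 4.59 and at 1.11 against 0.894.

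**Figure D4:**
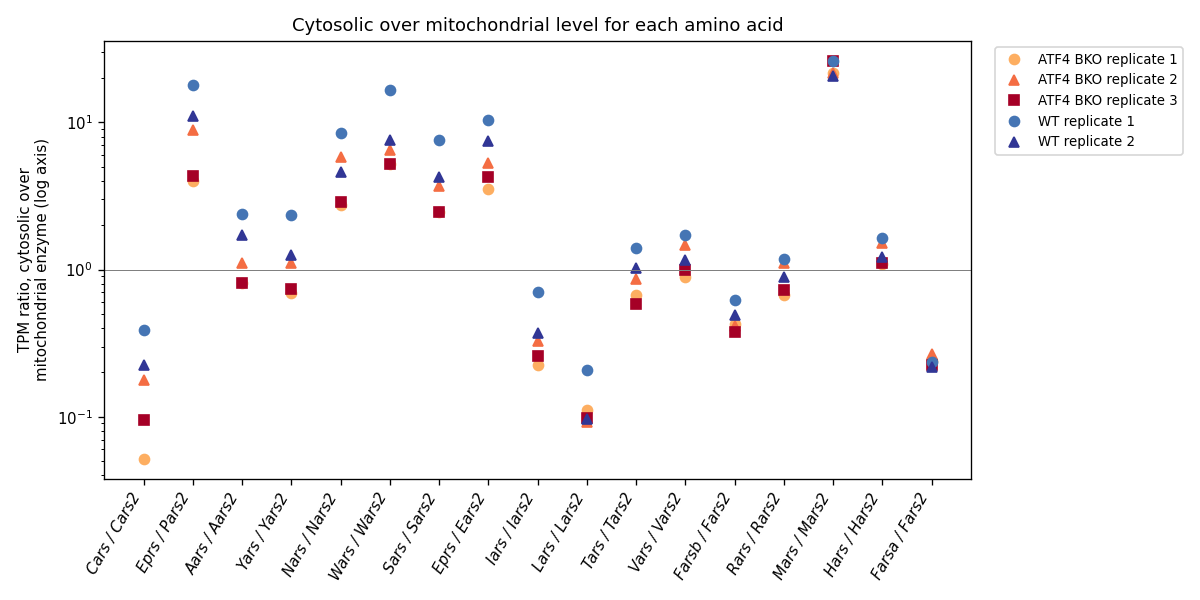
TPM of the cytosolic enzyme divided by TPM of the mitochondrial enzyme for the same amino acid, on a log axis, 1 point per library and 17 pairs ordered by the difference of their log2 fold changes. In 10 of the 17 pairs the 3 ATF4 BKO points lie below both WT points, and Mars over Mars2 is the highest ratio in every library. The share of such separation over other pairs of genes was not computed.

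Per transcript length, the most abundant cytosolic synthetase in every library was Gars, at 87.2, 104 and 90.3 TPM in ATF4 BKO mice against 191 and 137 TPM in WT mice. Cars was the lowest in the 3 ATF4 BKO mice at 7.59 to 11.0 TPM, while Farsa was the lowest in WT replicate 1 at 21.2 TPM and Lars in WT replicate 2 at 17.2 TPM. Lars2 was the highest mitochondrial synthetase in 4 libraries at 127 to 177 TPM, and Cars2 took that place in ATF4 BKO replicate 1 at 147 TPM. Mars2 was the lowest in all 5, at 1.14 to 1.59 TPM. These levels and the sums below count all transcripts. Lars2-209, annotated for nonsense-mediated decay, was at 92.1 to 144 TPM and the coding Lars2-201 at 22.2 to 32.7 TPM, below the coding Iars2-201 at 36.5 to 44.5 TPM. In ATF4 BKO replicate 1, Cars2-205, likewise annotated, was at 93.4 TPM and the coding Cars2-201 at 24.9 TPM. Summed over the genes, the cytosolic enzymes reached 530, 702 and 560 TPM in ATF4 BKO mice against 1328 and 876 TPM in WT mice, without overlap. The mitochondrial sums were 552, 524 and 528 TPM against 549 and 624 TPM, with overlap. The ratio of the cytosolic sum to the mitochondrial sum was 0.961, 1.34 and 1.06 in ATF4 BKO mice against 2.42 and 1.40 in WT mice, so that ATF4 BKO replicate 2 and WT replicate 2 nearly met. On the log2(TPM + 1) scale the median of all genes was itself -0.12, and the medians of the cytosolic and mitochondrial genes were -0.77 and -0.23. On the TPM scale 17 cytosolic and 10 mitochondrial genes were below both WT mice in every ATF4 BKO mouse, where 24.9% of all genes were.

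**Figure D5:**
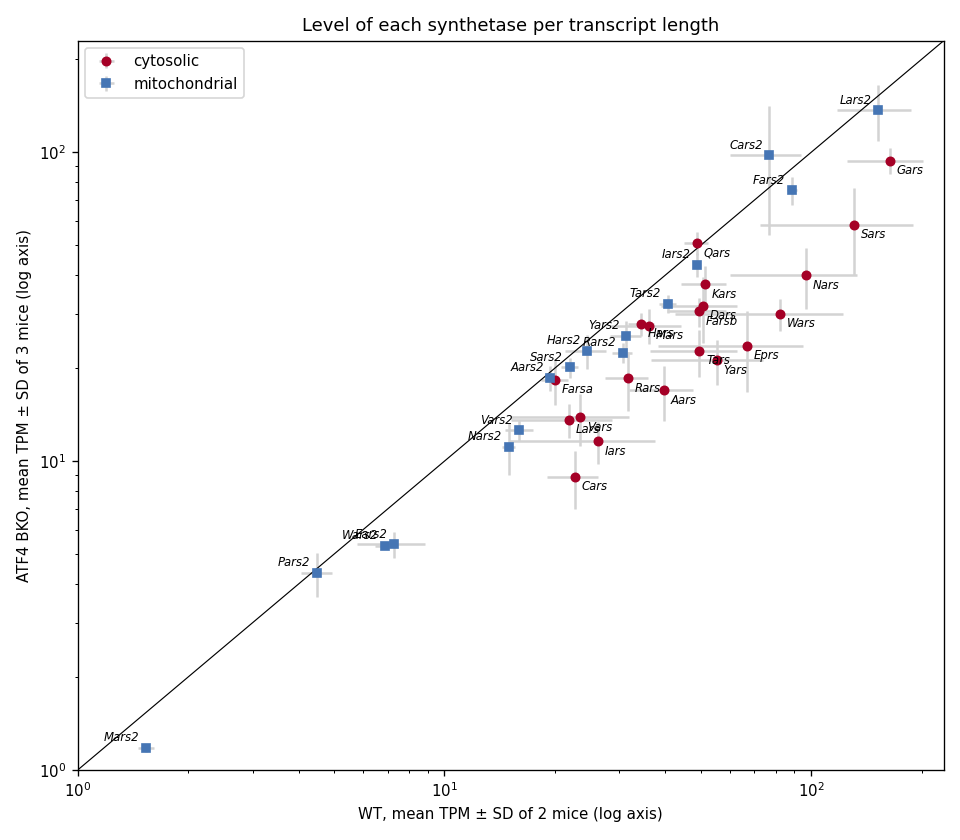
Mean TPM in the 3 ATF4 BKO mice against mean TPM in the 2 WT mice for the 36 synthetases, on log axes, with bars of 1 SD and the line of equal levels. Cytosolic genes other than Qars lie below the line, with Gars and Sars the most abundant in WT mice, and the mitochondrial genes lie close under the line from Mars2 to Lars2, except Cars2 above it.

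Several members are split over transcripts, and Kallisto divides reads among them by estimate. Lars-209, a transcript of Lars annotated for nonsense-mediated decay, held 27.8%, 27.9% and 29.0% of the Lars counts in ATF4 BKO mice against 20.9% and 20.8% in WT mice. Vars2-206, a transcript with a retained intron, held 11.9%, 13.2% and 14.0% of the Vars2 counts against 0 and 3.45%. For both transcripts the groups did not overlap, but they were picked after their values were seen. The share of all transcripts that separate the groups in this way was not counted, and transcript shares were not tested. The coding transcripts Iars-206 and Iars-201 traded places, Iars-206 holding 64.6%, 89.7% and 64.1% of the Iars counts in ATF4 BKO mice against 44.2% and 79.0% in WT mice, with overlap. Protein-coding transcripts held 35.0% to 47.7% of the counts of Qars and 15.4% to 22.4% of those of Lars2, whose transcript Lars2-209 is annotated for nonsense-mediated decay. Counted over protein-coding transcripts only, the cytosolic median was -0.77 and the mitochondrial median -0.03, and the values of Farsa and Qars became 0.09 and -0.17.

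Other genes of tRNA charging and elongation were counted by role. Of 16 charging partners, which include the scaffold proteins, the subunits of the mitochondrial amidotransferase and enzymes that edit mischarged tRNAs, 11 were lower, at a median log2 fold change of -0.12, and 5 were below both WT mice, beside 10.6% of all genes. Eef1e1, which codes for the scaffold AIMP3, was 9.27, 10.04 and 8.21 CPM against 15.9 and 11.2 CPM, and was the single partner with an unadjusted p under 0.05 (0.0385), at a log2 fold change of -0.57. The other scaffold genes, Aimp1 and Aimp2, had log2 fold changes of -0.26 and -0.54. Tarsl2, a relative of Tars, had a log2 fold change of -0.27. All 5 cytosolic elongation factors, which carry charged tRNAs to the ribosome and move it along the mRNA, were lower, with a median of -0.23, and 0 of the 5 were below both WT mice, beside the same 10.6%. Eef1a1 was 2662, 3255 and 2737 CPM against 4230 and 2961 CPM, so WT replicate 1 was the highest library and WT replicate 2 lay among the ATF4 BKO mice, and without WT replicate 1 the median of the elongation factors was 0.11. Of 9 mitochondrial translation factors 8 were lower, with a median of -0.02, and 3 were below both WT mice, again beside 10.6% of all genes. Mtrf1 and Mtrf1l, which code for release factors of mitochondria and lay nearest 0, were 11.5, 10.2 and 12.1 CPM against 11.1 and 11.6 CPM, and 6.71, 5.62 and 6.46 CPM against 6.23 and 6.31 CPM. In these 3 lists 0 genes were called by edgeR or DESeq2, and outside Eef1e1 0 had an unadjusted p under 0.05 in edgeR.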

How the data were processed

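Stranded mRNA libraries of mouse BAT were prepared by the authors, who counted reads per transcript with Kallisto (0.45.0 per the submitters' notes) and deposited estimated counts and TPM for each of 5 mice, with no normalization between mice. The transcript annotation is not given in the sources used here. Estimated counts were summed per gene with GENCODE M21 (GRCm38), by identifier for 138191 of 141450 transcripts (52022 genes), and rounded to whole numbers. TPM was summed in the same way.

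The genotypes were then tested in edgeR (version 4.0.16, under R 4.3.3) by its quasi-likelihood test with TMM scaling. A gene entered with 10 or more counts in 2 or more libraries, and p-values were adjusted over all 16450 genes by Benjamini-Hochberg, with 0.05 as the threshold. DESeq2 1.42.0, limma 3.58.1 on log2(TPM + 1) and log2(TPM + 0.1), other scalings, no filter, blocks, a muscle covariate and left-out mice were alternatives. No library was a repeat of another (smallest chi-square per degree of freedom between libraries, 49.9). Each library is 1 mouse. The fits were tested on simulated counts. Depth per library was 24698337 to 32452751 estimated counts. Members were matched by symbol. Motifs were searched in RefSeq promoter windows, and shared sequence was the share of a gene's 31-base words found in transcripts of other genes. The members, lists and the rule for named genes were chosen with earlier results of these data known. Named were Atf4, the 10 cytosolic and 6 mitochondrial members with the smallest p, members called by DESeq2, the 2 of each group with fold changes nearest 0, members against the sign of their group's median and, in the other lists, genes with an unadjusted p under 0.05 and the 2 nearest 0. Sars, Farsb, Eef1a1, Aimp1, Aimp2, Tarsl2 and the single transcripts were chosen after their values were seen. The authors' aligner-based workflow was not analysed here.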

Additional observations from a re-analysis of the deposited data

How the results depend on the processing

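The cytosolic median stayed negative in every setting, and moved beyond the spread between replicates with a muscle covariate (-1.203) and with 1 WT mouse left out, over a leave-one-out range of -1.04 (without WT replicate 2) to -0.33 (without WT replicate 1). The count of cytosolic genes called was 0 in each edgeR and limma setting, with 8 to 17 genes at an unadjusted p under 0.05. It was 6 with DESeq2, and 0 to 12 with DESeq2 and 1 mouse left out, an alternative chosen after seeing the data, as was the TPM scale for genes below both WT mice. Both ends of the DESeq2 range with 1 mouse left out come from fits with a single WT mouse, so neither is interpreted. The counts were 2, 7 and 1 without ATF4 BKO replicates 1, 2 and 3, where 120, 205 and 56 of all genes were called. The upper end at an unadjusted p under 0.05 also rests on a single WT mouse. The main fit had 14 such genes, each lower, where 3.42% of all genes were lower. The mitochondrial median was -0.23 and -0.27 on log2(TPM + 1) and log2(TPM + 0.1), -0.23 with the muscle covariate and 0.092 within prefix S2, and -0.10 to 0.025 in leave-one-out fits. Library totals alone moved the median of all genes to -0.10, and the 2 TPM scales moved it to -0.12 and -0.17. The count of mitochondrial genes below both WT mice was 10 on TPM (24.9% of all genes), 6 on library totals (19.4%), 5 on protein-coding transcripts (18.9%), against 3 in the report (10.6%), and 3 to 7 in leave-one-out counts, highest without WT replicate 2 (29.4% of all genes), with 6 without ATF4 BKO replicate 3 (15.1%). The charging partners had medians of -0.23 (library totals), -0.29 and -0.31 (TPM), -0.24 (muscle covariate), -0.25 (prefix S1) and 0.028 (prefix S2). The elongation factors were at -0.50 with the muscle covariate and -0.51 to 0.11 in leave-one-out fits. The mitochondrial translation factors were at -0.14 (library totals) and -0.24 (both TPM scales), and -0.12 to 0.076 in leave-one-out fits. The sign turned for members near 0: Farsa (0.092 on coding transcripts, 0.15 within S2, -0.14 to 0.14 in leave-one-out fits), Qars (-0.059 on library totals, -0.17 on coding transcripts), Vars2 (0.092 within S2, -0.093 to 0.10 in leave-one-out fits), Lars2 (-0.085 on library totals, -0.16 on both TPM scales, -0.018 on coding transcripts, -0.23 within S2, -0.16 to 0.22 in leave-one-out fits) and Tars2 (0.10 within S2). Within S2 it also turned for Fars2 (0.16), Nars2 (0.090), Yars2 (0.069) and Hars (0.029), and for Fars2 without WT replicate 1 (0.014), Nars2 and Yars2 without ATF4 BKO replicate 2 (0.034 and 0.016). It turned likewise in the 5 mitochondrial genes just above 0. Those on library totals were Aars2 (-0.0060), Sars2 (-0.051), Iars2 (-0.086) and Hars2 (-0.090). On log2(TPM + 1) and log2(TPM + 0.1), Aars2 was at -0.063 and -0.066, Pars2 at -0.046 and -0.057, Iars2 at -0.175 and -0.179, Sars2 at -0.123 and -0.128, and Hars2 at -0.102 and -0.106. With the muscle covariate, Aars2 was at -0.037, Pars2 at -0.35, Sars2 at -0.11, Iars2 at -0.19 and Hars2 at -0.024, and within S1 Pars2 was at -0.19, Sars2 at -0.058 and Iars2 at -0.094. Leave-one-out fits ran from -0.057 to 0.28 (Pars2), -0.030 to 0.14 (Sars2), -0.067 to 0.15 (Iars2) and -0.066 to 0.20 (Hars2). In each, the cause was not tested.

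Replicate numbers were not taken to pair the mice, since the deviations of same-numbered mice correlated at 0.05 and 0.20 over 2 pairs. With a replicate block the cytosolic median was -0.62 with 0 genes called, the mitochondrial median was -0.12, Pars2, Iars2 and Hars2 were at -0.053, -0.073 and -0.083, and 8 cytosolic genes had an unadjusted p under 0.05. Precision is limited by the 2 WT mice, and counting error was not separated from the spread between mice.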
